A study of Mus musculus with 6 samples.

Results

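A set of 39 transcription factors that build or mark the collecting duct epithelium was followed in mpkCCD clone 11 cells, a mouse cell line of the kidney cortical collecting duct. The factors were taken by gene symbol from a list. Of the 39, 34 had a probe set that names them alone, among 12364 genes measured. The other 5 (Esrrg, Hoxb8, Lhx1, Pax2 and Rara) are not analysed here. A gene with several probe sets was represented by the brightest, the one with the highest mean over the 6 arrays. The cells are 1 cloned line, all grown as a polarized layer on membrane supports until the electrical resistance was at least 5 kohm per cm2. One group of 3 cultures then received vehicle for 5 days, and the other group of 3 received 0.1 nM dDAVP, a synthetic vasopressin analog that activates the V2 receptor, for 5 days. Total RNA of each culture was hybridised to 1 Affymetrix Mouse Genome 430 2.0 array. The labels name vasopressin-mediated expression of the cells' own aquaporin 2 as the subject, and the comparison asks which transcripts differ after the exposure.

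The collecting duct grows from the ureteric bud, a branch of the nephric duct whose cells depend on Pax2, Pax8, Lhx1, Emx2 and Gata3. In the mature duct, principal cells carry the vasopressin-regulated water channel aquaporin 2, while intercalated cells transport acid and base. Tfcp2l1, Elf5, Ehf and Grhl2 are known from this epithelium, and ETS, GATA and Hox proteins bind short DNA motifs near many of its genes. A factor such as Stat3, Rela or an NFAT protein is switched on mainly by modification or by entry into the nucleus, which an RNA measurement does not see.

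The stretches of DNA before the start sites of Aqp2, Avpr2 and Fxyd4 are shown because these were the principal cell genes that rose with dDAVP, and because the families of the factors described here bind short motifs of the kind they contain. Each run is the 250 bases before the RefSeq start in build GRCm38.p6, 5′ to 3′ on the strand of the gene. Capitals mark GGAA (the core bound by ETS proteins), GATA (GATA proteins) and TAAT (Hox proteins) on either strand.
Aqp2, chr15:99578806-99579055, + strand: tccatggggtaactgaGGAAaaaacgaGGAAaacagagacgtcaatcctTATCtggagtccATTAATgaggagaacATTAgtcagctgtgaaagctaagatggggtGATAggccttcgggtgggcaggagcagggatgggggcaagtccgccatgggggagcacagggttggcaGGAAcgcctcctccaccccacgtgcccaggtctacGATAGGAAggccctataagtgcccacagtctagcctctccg
Avpr2, chrX:73891852-73892101, + strand: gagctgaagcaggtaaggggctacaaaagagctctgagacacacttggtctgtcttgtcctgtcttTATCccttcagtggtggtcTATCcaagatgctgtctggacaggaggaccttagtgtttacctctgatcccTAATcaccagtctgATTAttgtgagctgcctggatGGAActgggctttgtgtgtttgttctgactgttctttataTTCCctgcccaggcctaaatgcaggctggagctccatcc
Fxyd4, chr6:117937336-117937585, - strand: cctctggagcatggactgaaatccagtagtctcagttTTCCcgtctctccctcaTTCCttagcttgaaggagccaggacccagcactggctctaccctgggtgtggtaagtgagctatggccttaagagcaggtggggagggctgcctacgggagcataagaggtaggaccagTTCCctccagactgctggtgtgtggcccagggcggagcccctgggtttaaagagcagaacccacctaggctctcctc
The Aqp2 stretch held 4 matches to GGAA, 3 to GATA and 3 to TAAT. The GATA match nearest to the start begins 41 bases before it (position -41) and directly abuts a GGAA match at -37. The Avpr2 stretch held 2 matches to each of the 3 motifs, and the Fxyd4 stretch held 3 to GGAA, 0 to GATA and 0 to TAAT. Such letters are common. Of 27025 genes with a stretch of this length, counting 1 start per gene, 93.4% hold GGAA, 54.1% GATA and 55.3% TAAT. CACCC, bound by KLF proteins and found in 51.3% of stretches, matched 3 times in Aqp2, 0 times in Avpr2 and 1 time in Fxyd4. GGAAA, the core bound by NFAT proteins, which contains the ETS core, matched 2 times in Aqp2, 0 times in Avpr2 and 1 time in Fxyd4 (55.6% of stretches). AACCGGTT of the grainyhead family (0.122% of stretches), the half-site AGGTCA of RXR and its partners (13.8%) and TTCNNNGAA of STAT proteins (7.18%) had 0 matches in the 3 stretches. ACAAT of SOX proteins (28.3%) matched 1 time, in Avpr2. All motifs were searched on both strands, and a match describes letters only.

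The array medians lay between 6.695 and 6.738 log2 units, and any pair of arrays correlated at 0.996 to 0.998 across probe sets. The labels call the cultures biological replicates without saying whether they came from separate passages, so the p-values reflect only how far these 6 samples vary, which may be technical. Of 10 principal cell markers 8 were measured, and each was brighter than 3.56 log2 units. So were all 6 measured intercalated cell and all 4 measured proximal tubule markers, so this does not tell cell types apart. Of all genes 9.29% lay below that level. That level, the interpolated 95th percentile over just 10 probe sets for olfactory receptors, serves here as a rough mark of dim signal, because the files hold no detection calls. Of 14 intercalated cell markers 6 were measured, and none (0) passed the test, against 0.291% of all genes. Their changes were positive in 5 and negative in 1. An unadjusted limma p below 0.05 was found for 2 higher and 0 lower, against 5.51% and 2.3% of all genes. On the deposited scale, the summed signal of the 6 markers, as log2, was 10.20 to 10.32 in vehicle arrays and 10.33 to 10.38 in dDAVP arrays. These ranges nearly met, and a small shift between arrays could join them. The brightest markers weigh most in that sum. The part of this signal in the results below was not tested. In bulk RNA, a different number of cells of a type and a different amount of RNA per cell cannot be told apart. The poly-A controls, added before labelling, were at 7.90 ± 0.0996 and 7.92 ± 0.0266 log2 units (SD, n = 3, exact two-sided permutation p = 0.8). The hybridisation controls, added after labelling, were at 10.61 ± 0.0796 and 10.46 ± 0.0657 (exact p = 0.1; no smaller value is possible with groups of 3).

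Most of the factors were bright in these cells. Their median signal was 9.0 log2 units, against 7.66 for all genes, and 25 of the 34 lay above the median gene. All such levels and percentiles are relative to the probe sets in the table used here, and the sources used here do not say how those were selected. Of the 34, 18 were above the 75th percentile and 7 above the 90th. The olfactory receptor mark was exceeded by 33, and 9.29% of all genes lay below it. Brightness also depends on the probes, so the order below describes signals and not relative transcript amounts.

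Sox4, an SRY-related factor of progenitor and epithelial cells, was the brightest at 12.66 ± 0.0859 log2 units in vehicle cells (99.5th percentile of genes). Tfcp2l1, a CP2-family factor required for collecting duct cell identity, followed at 11.00 ± 0.0568 (96.0th percentile), then the NF-kB subunit Rela at 10.87 ± 0.0665. The 6-array ranges of Tfcp2l1 and Rela overlapped, while Sox4 stood apart from both. Hoxd8 (10.42), Klf5 (10.30), Pax8 (10.25) and Klf6 (10.05, all vehicle means) completed the 7 above the 90th percentile. Along the whole order 21 of the 33 neighbouring pairs had overlapping ranges, so most neighbours could not be ordered beyond their spread. From Klf5 to Gata3 and Ehf each neighbour overlapped the next, as it did from Hoxb9 down to Stat3.

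The dim end held genes with known duct roles. Elf5, an ETS factor known as a marker of principal cells, measured 3.94, 3.55 and 3.75 log2 units in the vehicle arrays and 3.58, 3.78 and 3.86 in the dDAVP arrays. These values lie close to the olfactory receptor mark. Hoxb7, whose promoter is widely used to drive transgenes in the ureteric bud and collecting duct, lay below the mark on all 6 arrays (2.94 to 3.30). Another probe set carries the names of both Hoxb7 and Hoxb8 and was left out by the rule, so the dim signal of 1 probe set is no measure of the gene's absence. Elf4 (5.36 in vehicle cells) and Nfatc1 (5.72) were the next dimmest. By signal alone, 33 of the 34 measured factors were thus above the mark, with Elf5 close to it. Of all genes 9.29% lay below the mark, so this count does not set the factors apart.

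**Figure D1:**
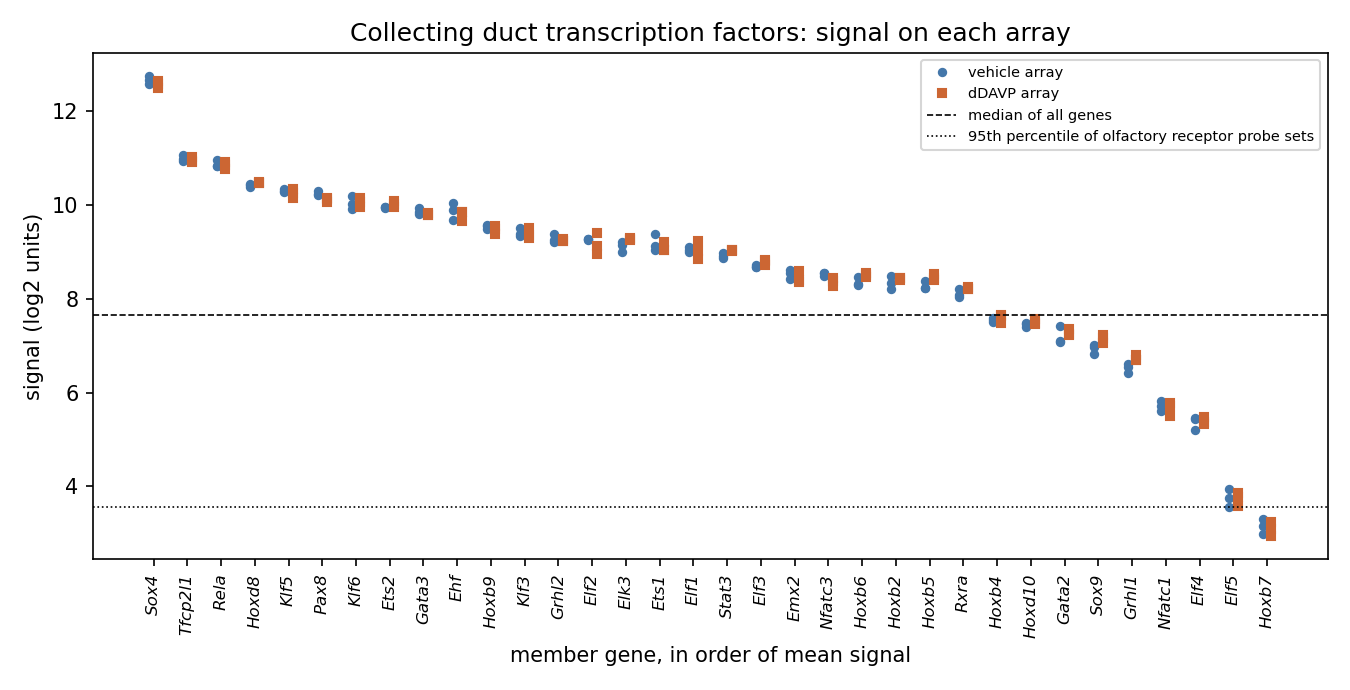
Signal of each of the 34 factors on every array in log2 units, in order of mean signal, with circles for the 3 vehicle arrays and squares for the 3 dDAVP arrays. The dashed line is the median of all genes (7.66) and the dotted line the olfactory receptor mark (3.56); 25 factors lie above the dashed line and Hoxb7 alone lies below the dotted line.

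None of the 34 factors passed the test between dDAVP and vehicle cells (0 at an adjusted p below 0.05 in limma, with Benjamini-Hochberg adjustment over all probe sets), whereas Aqp2, the water channel gene of the same cells, rose 17.8-fold. Of all genes 0.291% passed (36 of 12364, 0.259% higher and 0.0324% lower), and of all probe sets 0.216%, so a count of 0 in 34 does not set the factors apart from other genes. The smallest adjusted p among the factors was 0.501, for Grhl1. Their folds ran from 0.892 for Nfatc3 to 1.16 for Sox9, with a median log2 change of -0.0089 against 0.012 for all genes. Of the 34 changes 16 were positive and 18 negative, and 55.4% of all genes had a positive change.

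On the deposited scale, the arrays bounded these changes of the brightest probe sets closely. The 95% interval of every one of the 34 changes lay within 1.5-fold in either direction, as it did for 98.4% of all genes. The bound farthest from 0 was that of Sox9, at 0.38 log2 units or 1.31-fold. For 29 of the 34 the interval also lay within 1.25-fold, against 78.3% of genes, and the other 5 were Ehf, Elf2, Hoxb5, Sox9 and Grhl1. These intervals are for single genes and are not widened for the number of genes looked at. Some dimmer probe sets of the same genes reached farther from 0. The interval was 0.25 to 0.55 for the third Stat3 probe set. It was -0.45 to -0.075 for the second of Grhl2 and -0.44 to -0.025 for the second of Elf4. After scaling to the hybridisation controls the change of Sox9 itself was 0.36. The spread between arrays was of the usual size, with a median pooled SD of 0.0751 for the factors and 0.0827 for all genes.

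**Figure D2:**
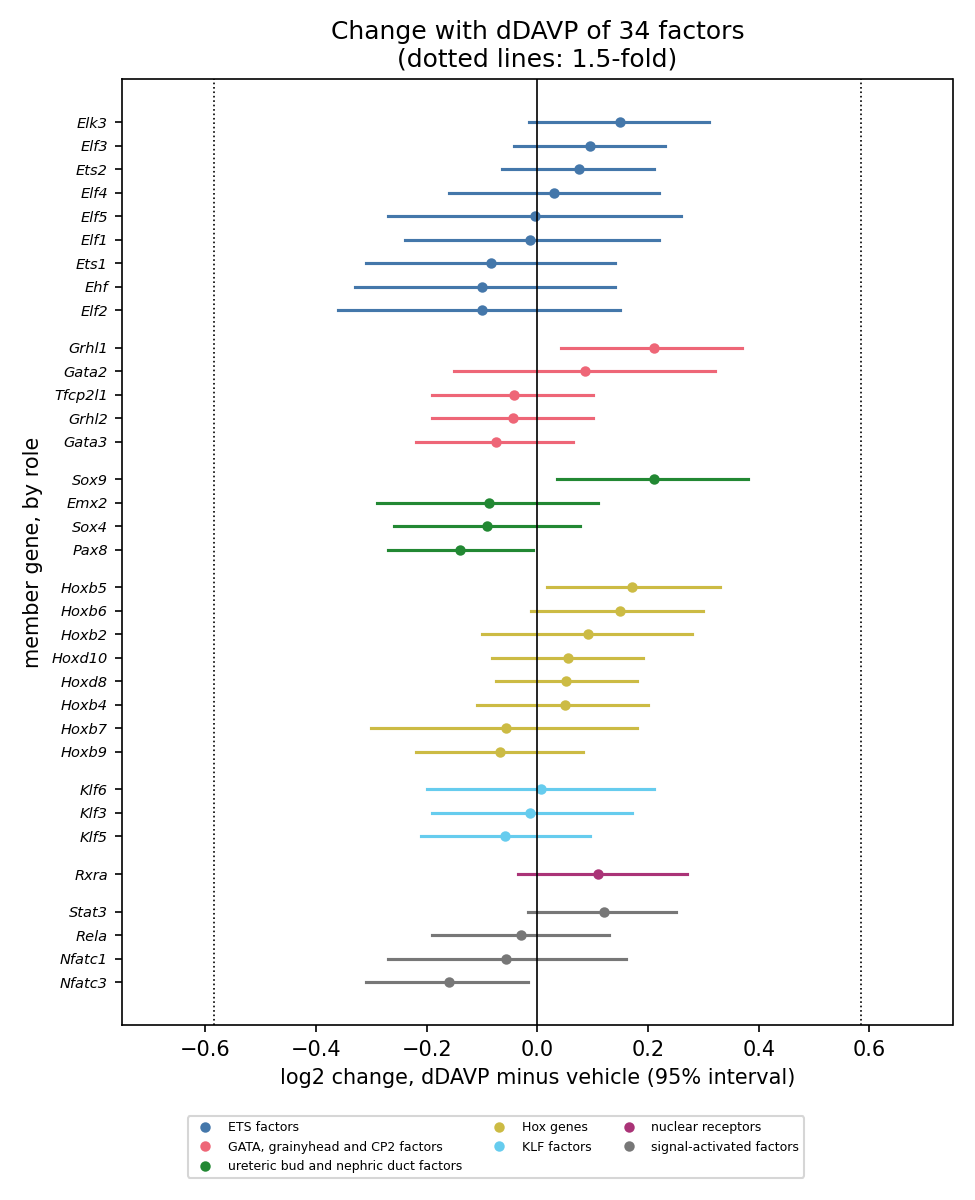
Log2 change with dDAVP (points, dDAVP minus vehicle) and its 95% interval (lines) for the 34 factors, coloured and grouped by role, with dotted lines at 1.5-fold. All intervals lie inside the dotted lines, and the intervals of Grhl1, Sox9, Hoxb5, Pax8 and Nfatc3 do not include 0.

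Without adjustment, 5 of the 34 factors (14.7%) had a p below 0.05, against 7.8% of all genes. They were Grhl1, Sox9 and Hoxb5, with higher signal under dDAVP (5.51% of genes), and Pax8 and Nfatc3, with lower signal (2.3% of genes). The 3 vehicle and 3 dDAVP values did not overlap in 11 factors (32.4%, 9 higher and 2 lower) and in 15.2% of all genes (10.1% higher and 5.13% lower). That count depended on the scaling of the arrays. With arrays centred on their medians, 7 factors (4 higher, 3 lower) and 14.2% of genes had separate groups. After scaling to the poly-A controls there were 6 factors (2 higher, 4 lower) and 10% of genes. Scaling to the hybridisation controls took the median log2 change over every probe set to 0.15, from 0.0039, and left 14 factors (14 higher, 0 lower) and 35% of genes with separate groups. That scaling also turned 17 of the 18 negative changes positive, the exception being Nfatc3, so the signs given for the other factors below hold relative to the deposited scale. Under each of the other 3 scalings 1 factor changed sign, Elf5 or Klf6, both with a change close to 0. Counting under these scalings was chosen after the values were seen.

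**Figure D3:**
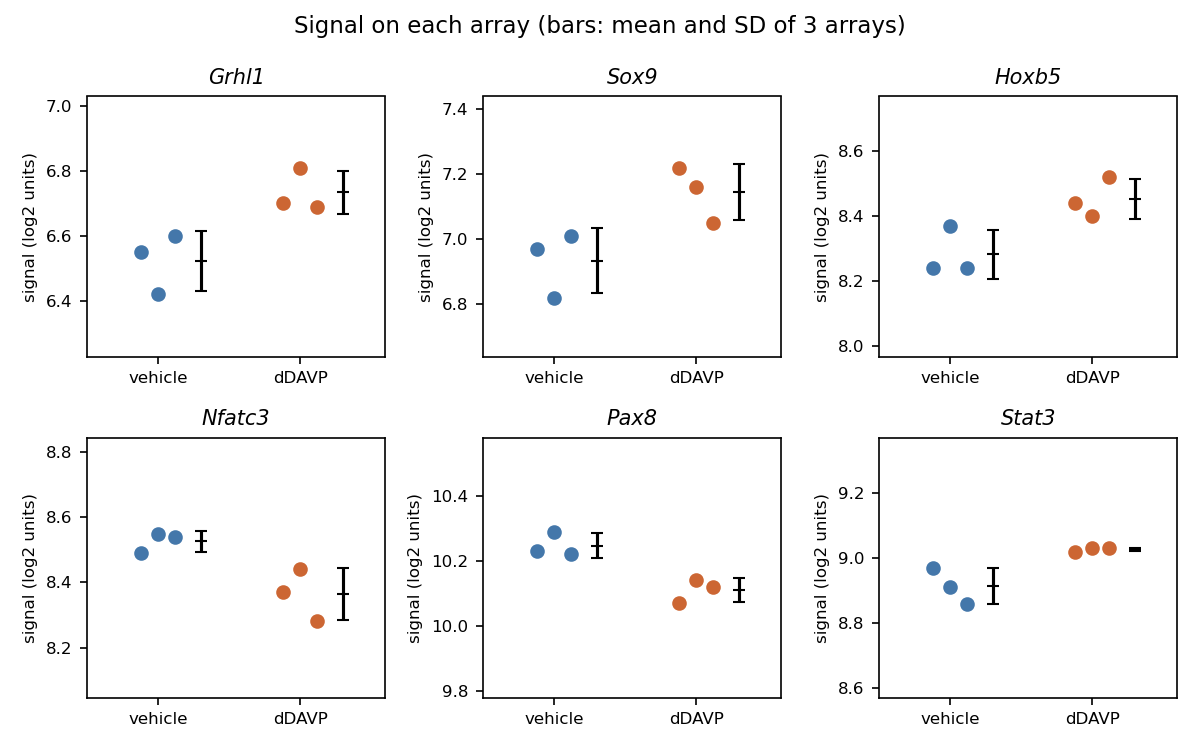
Signal in log2 units on each array for the 5 factors with an unadjusted p below 0.05 and for Stat3, with bars for the mean and SD of 3 arrays; every panel spans the same 0.8 log2 units. In each panel the vehicle and dDAVP points do not overlap, and no mean differs by more than the 0.21 of Sox9 and Grhl1.

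Among the ETS factors, a family that reads the GGAA core, 0 of 9 passed in limma and 0 had an unadjusted p below 0.05. Their median log2 change was -0.0049. Ehf, an ETS factor of many duct and gland epithelia, measured 10.05, 9.69 and 9.89 log2 units in vehicle cells and 9.85, 9.85 and 9.65 in dDAVP cells. The groups overlapped, and the change of -0.10 ± 0.102 (SE) was no larger than its error. All 3 Ehf probe sets had a negative change, between -0.10 and -0.089. Elf3, an epithelial ETS factor, measured 8.68, 8.73 and 8.68 in vehicle cells and 8.73, 8.83 and 8.80 in dDAVP cells. The highest vehicle and lowest dDAVP value both round to 8.73, and the change was 0.094 ± 0.0589 (limma unadjusted p = 0.148).

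Elk3, a ternary complex factor that partners serum response factor, had the largest positive change of these 9 factors, 0.15 ± 0.0707 (limma adjusted p = 0.674). Its arrays read 9.22, 9.0 and 9.15 with vehicle and 9.30, 9.27 and 9.25 with dDAVP, so the groups did not overlap. Its next probe set gave 0.14 ± 0.0600, and the dimmer ones -0.051 and 0.040. Ets2, a factor downstream of Ras signalling, also had separate groups, at 9.95, 9.94 and 9.96 against 9.96, 10.09 and 10.02, although the nearest values of both groups round to 9.96. The difference of 0.075 was close to its SE of 0.0600.

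The ETS factors had the highest median pooled SD between cultures of a group among the roles, 0.138, with the KLF factors next at 0.0971. Of the 9 ETS factors 6 exceeded the SD of the median gene. The difference between roles was not tested. Elf2 gave 9.40, 9.13 and 8.95 on the dDAVP arrays against 9.25 to 9.28 on the vehicle arrays, and Elf1 gave 9.23, 9.02 and 8.84 against 9.11, 9.03 and 9.0. Both were highest on dDAVP replicate 1 and lowest on dDAVP replicate 3, as were Sox4, Klf3 and Emx2 of other roles. Among the dDAVP arrays, replicate 1 was the highest for 16 of the 34 factors and replicate 3 the lowest for 16. Ets1 gave 9.38, 9.05 and 9.13 with vehicle and 9.21, 9.05 and 9.04 with dDAVP. Ehf, Ets1 and Elk3 had their highest vehicle value on replicate 1 and their lowest on replicate 2, as did Sox4, Klf3, Klf6 and Emx2. Neither order is therefore particular to the ETS factors. In Ets1 the brightest 2 probe sets had negative changes (-0.084 and -0.053) and the third a positive one (0.17 ± 0.0828), none of them past the test. The dimmer Elf4 probe set (mean 4.42) had a change of -0.23 ± 0.0890, against 0.030 ± 0.0828 on the brighter one.

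Of the GATA, grainyhead and CP2 factors, 0 of 5 passed in limma and 1 had an unadjusted p below 0.05. Gata3, needed for nephric duct growth, measured 9.86, 9.94 and 9.81 log2 units in vehicle cells and 9.83, 9.79 and 9.78 in dDAVP cells. Its change of -0.075 ± 0.0606 was within the range of the arrays. Gata2, which is known to act on Aqp2 in the collecting duct, was dimmer, at 7.09, 7.42 and 7.07 against 7.22, 7.25 and 7.36. The single high vehicle value put the dDAVP values inside the vehicle range, and the 95% interval of its change ran from -0.15 to 0.32. Tfcp2l1 gave 10.99, 11.06 and 10.94 against 10.91, 11.02 and 10.93. Its interval ran from -0.19 to 0.10.

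The 2 grainyhead factors, which open and activate epithelial junction genes, had changes of opposite sign. Grhl1 measured 6.55, 6.42 and 6.60 in vehicle cells and 6.7, 6.81 and 6.69 in dDAVP cells. Every dDAVP value was higher than every vehicle value, and the change was 0.21 ± 0.0715 (limma unadjusted p = 0.0205, adjusted p = 0.501). Grhl2, brighter than Grhl1 by its probe set, read 9.26, 9.38 and 9.22 against 9.27, 9.23 and 9.23, with overlapping groups and a change of -0.044 ± 0.0641. Its 3 dimmer probe sets also gave negative changes. The larger of these, at a mean of 6.39, was -0.26 ± 0.0800 (unadjusted p = 0.0120, adjusted p = 0.430), with 6.57, 6.40 and 6.58 in vehicle cells and 6.33, 6.30 and 6.14 in dDAVP cells. All 4 probe sets of Grhl2 thus had negative changes on the deposited scale, and whether these differ in size was not tested. Whether the changes of Grhl1 and Grhl2 differ from each other was not tested.

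Of the nephric duct and ureteric bud factors, 0 of 4 passed in limma and 2 had an unadjusted p below 0.05. Pax8, a paired-box factor that acts with Pax2 in specifying the duct lineage, read 10.23, 10.29 and 10.22 log2 units with vehicle and 10.07, 10.14 and 10.12 with dDAVP. All dDAVP values were below all vehicle values, by a mean of 0.14 (change -0.14 ± 0.0569, limma unadjusted p = 0.0405, adjusted p = 0.600). A second Pax8 probe set was near the dim mark (mean 4.01) and gave 0.069 ± 0.118. Sox9, expressed in the tips of the branching ureteric bud, read 6.97, 6.82 and 7.01 against 7.22, 7.16 and 7.05. The highest vehicle value lay just under the lowest dDAVP value, with a change of 0.21 ± 0.0753 (adjusted p = 0.525), and its second probe set gave 0.14 ± 0.0953.

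Sox4 had 6 probe sets, and all 6 gave negative changes, from -0.16 to -0.0053. The brightest read 12.75, 12.58 and 12.66 in vehicle cells and 12.65, 12.57 and 12.49 in dDAVP cells, and the groups overlapped. Emx2, a homeobox factor of ureteric bud branching, read 8.61, 8.42 and 8.56 against 8.60, 8.39 and 8.35, again with overlap. Its change was -0.087 ± 0.0871.

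Of the Hox genes, which pattern the body axis and remain expressed in adult kidney tubules, 0 of 8 measured members passed in limma and 1 had an unadjusted p below 0.05. The changes were positive in 6 and negative in 2 (positive in all 8 after scaling to the hybridisation controls), with a median of 0.054. Hoxb5 read 8.24, 8.37 and 8.24 log2 units in vehicle cells and 8.44, 8.40 and 8.52 in dDAVP cells, without overlap. Its change was 0.17 ± 0.0663 (limma unadjusted p = 0.0330, adjusted p = 0.565). Its chromosomal neighbour Hoxb6 read 8.31, 8.46 and 8.29 against 8.54, 8.51 and 8.46, and the groups met at 8.46. Its change was 0.15 ± 0.0671.

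Along the Hoxb cluster, in RefSeq order of gene starts, the changes were 0.044 for Hoxb13, -0.068 for Hoxb9, -0.057 for Hoxb7, 0.15 for Hoxb6, 0.17 for Hoxb5, -0.053 for Hoxb3, 0.049 for Hoxb4 and 0.091 for Hoxb2. The values of the adjacent Hoxb6 and Hoxb5 were the largest of the 8. The Hoxb7 probe set lay below the dim mark, so its value says little about that gene. Hoxb8 and Hoxb1 had no probe set of their own in the table. Hoxb9 was the brightest Hoxb member of the set, at 9.49, 9.57 and 9.56 against 9.55, 9.38 and 9.48. Hoxb2 read 8.20, 8.34 and 8.49 with vehicle and 8.45, 8.40 and 8.45 with dDAVP, with overlapping groups. Hoxb4 (7.51, 7.59 and 7.54 against 7.49, 7.66 and 7.63) overlapped.

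In the Hoxd cluster, Hoxd8 read 10.39, 10.44 and 10.43 against 10.48, 10.47 and 10.46. The groups were separate but the change was small, 0.051 ± 0.0546, and its second probe set gave 0.089 ± 0.0603. Hoxd10 gave 0.056 ± 0.0596.

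Of the KLF factors, zinc finger proteins that bind CACCC-like motifs, 0 of 3 passed in limma and 0 had an unadjusted p below 0.05. Klf5, a factor of epithelial growth that is known in the collecting duct, read 10.30, 10.33 and 10.27 log2 units with vehicle and 10.14, 10.26 and 10.33 with dDAVP. Klf6, an early response factor, read 10.20, 9.92 and 10.03 against 9.96, 10.06 and 10.14. Klf3, a repressor of the same family, gave a change of -0.013 ± 0.0778, and its 6 probe sets ran from -0.042 to 0.022. The groups of all 3 overlapped.

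Rxra, the shared partner of retinoid, thyroid and vitamin D receptors, was the 1 measured nuclear receptor of the set. It read 8.09, 8.20 and 8.03 log2 units against 8.21, 8.26 and 8.20. The highest vehicle and lowest dDAVP value both round to 8.20, and the change was 0.11 ± 0.0651 (limma adjusted p = 0.741).

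Of the signal-activated factors, 0 of 4 passed in limma and 1 had an unadjusted p below 0.05. Nfatc3, a factor that calcineurin moves into the nucleus, read 8.49, 8.55 and 8.54 log2 units with vehicle and 8.37, 8.44 and 8.28 with dDAVP. The groups did not overlap on this probe set (-0.16 ± 0.0637, limma unadjusted p = 0.0330, adjusted p = 0.565), while the second Nfatc3 probe set gave -0.016 ± 0.0770. Nfatc1 gave -0.057 ± 0.0930 and Rela -0.030 ± 0.0672, both with overlapping groups.

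Stat3, which cytokine receptors activate, was the factor whose probe sets differed most. The brightest read 8.97, 8.91 and 8.86 with vehicle and 9.02, 9.03 and 9.03 with dDAVP, a change of 0.12 ± 0.0574 (limma adjusted p = 0.690). The second gave 0.16 ± 0.0795. The third, at a mean of 6.40, read 6.13, 6.20 and 6.27 with vehicle and 6.54, 6.63 and 6.63 with dDAVP. Its change of 0.40 ± 0.0652 had the smallest p of all 76 probe sets of the factors (unadjusted p = 3.29e-04, adjusted p = 0.0928) and did not pass. The fourth and dimmest gave -0.026 ± 0.0842. The groups on the 3 brighter Stat3 probe sets all had higher dDAVP means, but by amounts from 0.12 to 0.40.

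Over all 76 probe sets of the 34 factors, 0 passed in limma and 9 had an unadjusted p below 0.05, against 7.98% of all 28225 probe sets tested. Of the 19 factors with more than 1 probe set, 11 had changes of 1 sign over all their probe sets above the dim mark, and 8 had both signs. Probe sets of a gene can read different transcript ends or isoforms, and the sources used here do not tell which. The span between the probe sets of a gene was largest in Stat3, followed by Elf4, Ets1 and Grhl2.

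**Figure D4:**
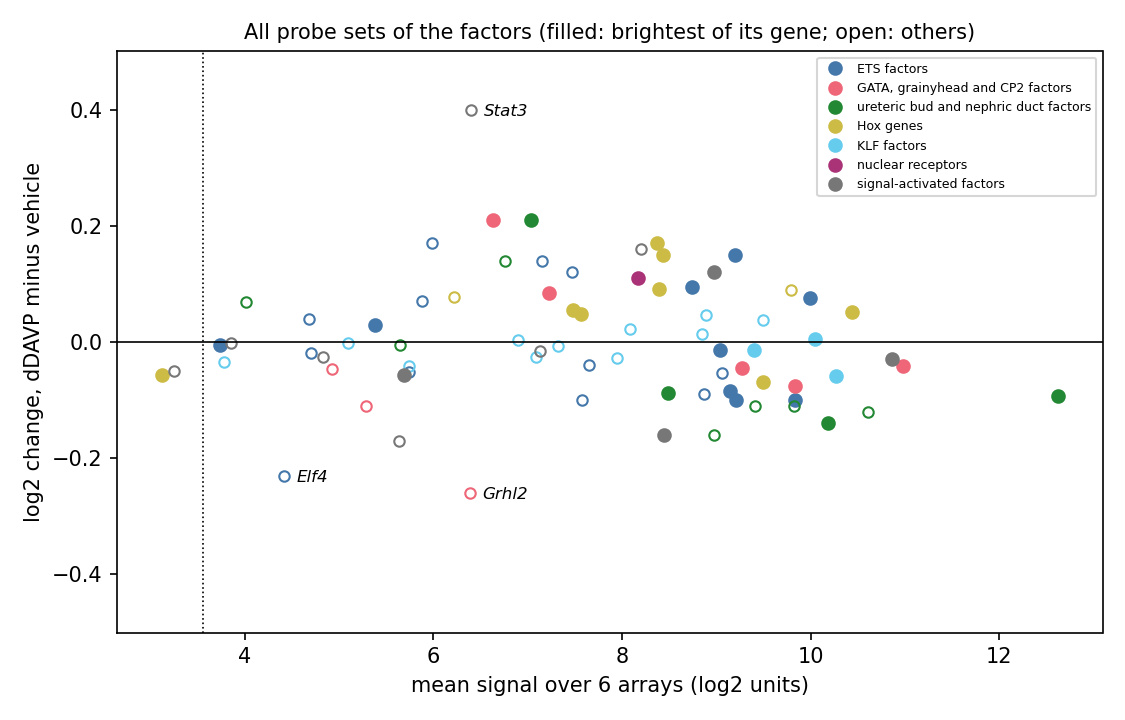
Log2 change with dDAVP against mean signal (log2 units, 6 arrays) for all 76 probe sets of the factors, filled for the brightest probe set of a gene and open for the others, coloured by role; the dotted line is the olfactory receptor mark at 3.56. The largest positive change (0.40) is the third Stat3 probe set, and the largest negative ones are second probe sets of Grhl2 (-0.26) and Elf4 (-0.23).

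Principal cell genes were read on the same arrays. Of 9 measured principal cell genes 3 rose and 0 fell. Aqp2 read 6.65, 6.72 and 6.72 log2 units in vehicle cells and 10.93, 10.79 and 10.82 in dDAVP cells (limma adjusted p = 1.66e-07). Avpr2, the V2 receptor gene, read 8.65, 8.77 and 8.78 against 9.31, 9.25 and 9.20 (1.44-fold, adjusted p = 0.0271), and Fxyd4, a regulator of the sodium pump, 8.84, 8.97 and 8.86 against 9.63, 9.48 and 9.60 (1.6-fold, adjusted p = 0.0116). The groups of all 3 genes were far apart beside their spread. Aqp3, the basolateral water channel gene, did not pass (0.15 ± 0.0786, adjusted p = 0.703). The call of Avpr2 ended when any 1 array was left out (change 0.48 to 0.55) and after scaling to the poly-A controls. The Fxyd4 call was lost when replicate 1 or 3 of either group was dropped (0.65 to 0.66). Both calls ended with the replicate number as a block (adjusted p = 0.157 and 0.0955).

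Further factors of the same families and their partners also held no call. Over the 8 lists of further ETS, GATA, duct, Hox, KLF, nuclear receptor, NF-kB, NFAT and STAT genes, including cofactors, 0 of 114 measured genes passed in limma. Of all genes 0.291% passed, so a count of 0 in 114 does not set these genes apart. An unadjusted p below 0.05 was found for 9 with higher and 6 with lower signal, against 5.51% and 2.3% of all genes. The median change was 0.011. Among the other ETS factors (13 of 19 measured, median -0.057), Etv4, a factor of ureteric bud tips under Ret signalling, had a change of 0.26 ± 0.0949 (adjusted p = 0.539). The other GATA, grainyhead and CP2 genes (6 measured, median -0.018), the other Hox genes (14, median 0.019) and the Hox cofactors (7, median -0.032) held 0 genes with an unadjusted p below 0.05.

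The value nearest to a call belonged to Osr1, a zinc finger factor of early kidney progenitors, in the list of other duct and kidney development factors (23 of 40 measured, median 0.022). It read 6.53, 6.42 and 6.45 log2 units in vehicle cells and 6.02, 6.02 and 5.83 in dDAVP cells, with separate groups. Its change was -0.51 ± 0.0735 (limma adjusted p = 0.0552), a signal 0.704 of that in vehicle cells. It passed in 5 of 15 alternatives, among them quantile normalization and median centring, with adjusted p from 0.0167 to 0.248 over all 15. Tfap2a, an AP-2 factor of the distal nephron and duct, had 0.23 ± 0.0648 (adjusted p = 0.397).

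Around Rxra, the list of other nuclear receptors, coregulators and retinoid genes (17 of 34 measured, median -0.0013) had its smallest p in retinoid handling genes. Crabp2, which carries retinoic acid to its receptor, read 8.30, 8.31 and 8.42 against 8.87, 8.66 and 8.72 (0.40 ± 0.0751, limma adjusted p = 0.138). Rdh10, which makes the precursor of retinoic acid, read 9.87, 9.84 and 9.78 against 10.17, 10.21 and 10.10 (0.33 ± 0.0612, adjusted p = 0.138). Neither passed, although both had separate groups. The other measured retinoid handling genes of the list, Dhrs3 (0.034 ± 0.0666) and Aldh1a1 (-0.0013 ± 0.057), had changes smaller than their errors. Crabp2 passed in 4 of 16 alternatives (adjusted p 0.0157 to 0.537) and Rdh10 in 3 of 17 (0.00978 to 0.737).

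In the KLF and SP list (13 of 18 measured, median -0.014), Klf10 had -0.22 ± 0.0689 (limma adjusted p = 0.443) and Klf12, below the dim mark, -0.17 ± 0.0611 (0.525). In the list of NF-kB, NFAT and STAT partners (21 of 25 measured, median 0.073), Stat5a had 0.20 ± 0.0590 (0.421) and Nfat5, the osmotic response factor, -0.16 ± 0.0624 (0.561). Of 15 epithelial and junction genes linked to grainyhead factors, 0 passed in limma. An unadjusted p below 0.05 was found for 4 (3 with higher signal, 1 with lower), against 7.8% of all genes. The keratin Krt19 had 0.24 ± 0.0574 (adjusted p = 0.281) and the claudin Cldn3 -0.17 ± 0.0669 (0.597). Of 7 ureteric bud signalling genes 0 passed, and the FGF antagonist Spry1 (0.28 ± 0.0605, adjusted p = 0.227) and Bmp7 (0.25 ± 0.0609, 0.290) had the smallest p.

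**Figure D5:**
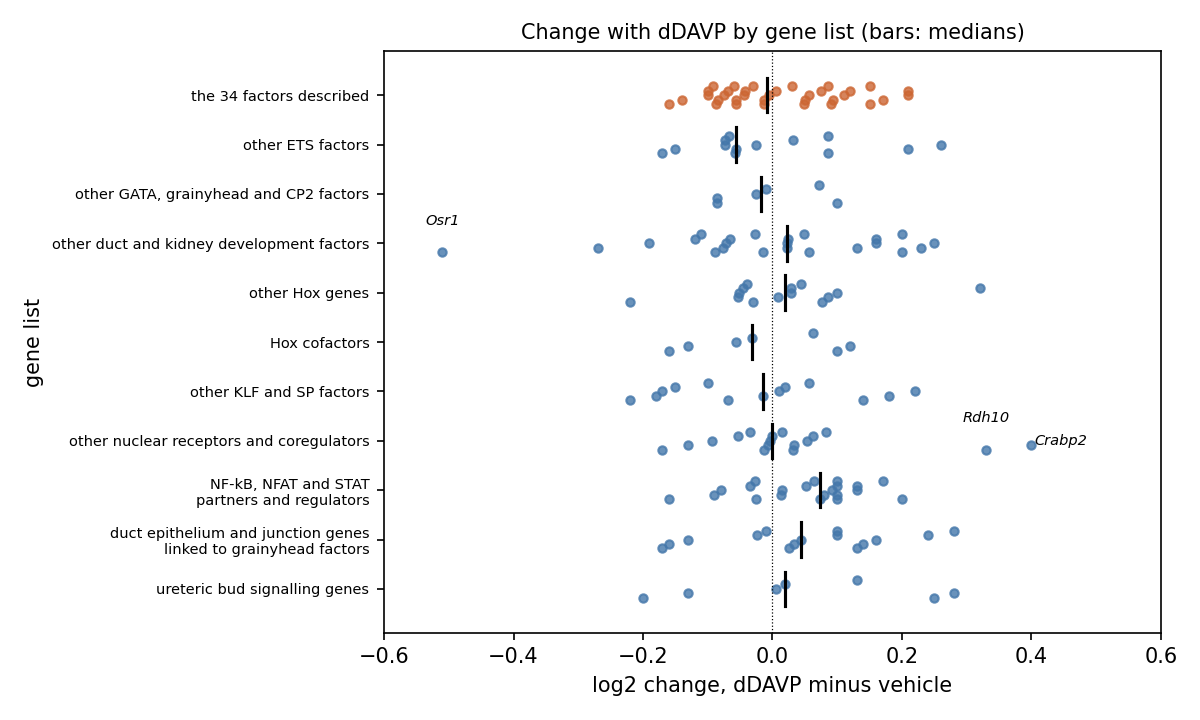
Log2 change with dDAVP of each measured gene (points) and list medians (bars) for the 34 factors and for 10 lists of related genes; the principal cell list, with Aqp2 at 4.15, is not drawn. The factors span -0.16 to 0.21, and Osr1 (-0.51), Crabp2 (0.40) and Rdh10 (0.33) lie farthest from 0 in the other lists.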

How the data were processed

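Total RNA from 3 vehicle and 3 dDAVP cultures was hybridised to 1 array each, with biotin-labelled cRNA, per the labels' protocols. The authors deposited log2 signals, 1 per probe set and array. Affymetrix Expression Console 1.1, RMA and MAS5 appear in the submitters' processing notes, but the sources used here do not say which made these values. Depending on the method, ratios of dim genes may be compressed or noisy. No read depth applies, and the number of arrays limits the precision.

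Gene names came from the platform annotation, which gives exactly 1 symbol for 23097 of 28225 probe sets. Controls (62) were left out of the test. All 28225 were fitted in limma 3.58.1 under R 4.3.3 (lmFit, eBayes) and adjusted by the Benjamini-Hochberg method at 0.05. Errors are SDs over 3 arrays or SEs of the fit. The fit was tested on 5 simulated data sets of this comparison (200 changed among 28225). It recovered 10.8% of the changes sized 0.3 log2 units, 78% at size 0.5 and 100% at size 1, and 5% of its calls were false. The simulated noise was normal and independent between probe sets, without shifts shared by an array. The share of false calls therefore follows from the adjustment and does not cover such shifts.

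The factors and all lists were chosen with earlier results of these data known. Named in the text are all factors, Aqp2, Aqp3 and Avpr2, and in each other list the genes that passed or else up to 2 with the smallest unadjusted p below 0.05. Hox genes of the other list that stand in the Hoxb order, Dhrs3 and Aldh1a1 are exceptions, named after their values were seen. Alternatives were quantile normalization, median centring, scaling to poly-A (25 probe sets) or hybridisation controls (18), 2 filters on dim probe sets, trended and robust priors, a replicate block, leaving out each array, other probe sets per gene and a threshold of 0.01. Promoter sequences came from RefSeq (GRCm38.p6). The arrays' files name no build. Figures were drawn with matplotlib 3.10.9.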

Additional observations from a re-analysis of the deposited data

How the results depend on the processing

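No factor passed in any alternative (0 of 34, or of the 29, 33 or 19 that a filter or a second probe set left), and the smallest adjusted p was 0.0786, for Sox9 after scaling to the hybridisation controls. Of the factors' changes under the alternatives, 515 lay within 1 pooled replicate SD of the reported value and 42 lay farther, 29 of these after scaling to the hybridisation controls. The 515 do not measure stability, because many could not have lain farther. The priors, the replicate block and the filters on dim probe sets leave a change as it was. Leaving out 1 array cannot move it that far. The others farther off were 7 of 19 second brightest probe sets, 5 means of a gene's probe sets and 1 after poly-A scaling. All 34 stayed within 1 SD under quantile normalization and under median centring. The sign of the change held in 15 of 34 factors under all alternatives and in 22 of 34 without the hybridisation scaling. The median change of the factors (-0.0089) was -0.033 after scaling to poly-A controls, 0.14 after scaling to hybridisation controls (0.15 for all probe sets), 0.022 over the 19 second brightest probe sets and -0.031 to 0.030 with 1 array left out. Factors with separate groups numbered 7 after median centring and 6 after poly-A scaling, instead of 11. Over all probe sets, 61 passed (86.9% of them higher). The count was 282 after hybridisation scaling (97.5% higher), 95 above the median level, 146 with a trended prior, 24 with the replicate block, 23 at a threshold of 0.01 and 22 to 46 with 1 array left out. For these the cause was not tested. Deviations of same-numbered arrays correlated at 0.196, 0.0463 and -0.0522, and those of differently numbered arrays at -0.208 to 0.17. The numbers were therefore not taken to pair the cultures, and the replicate block gave 0 calls among the factors. Signals near 3.56 log2 units (Elf5, Hoxb7) limit what those genes can show.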
